A study of Mus musculus with 6 samples.

Results

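The tripartite motif (Trim) genes were taken by name: every probe set whose symbol in the platform annotation is Trim followed by a digit. The pattern matched 61 of the 22206 probe sets on the array, 1 for each of 61 genes, out of 19505 named genes in all. All 61 matched a mouse gene table by gene number with their symbols unchanged, and 1 of them, Trim30e-ps1, is listed there as a transcribed pseudogene. TRIM proteins that carry other names (Pml, Mid1, Mid2 and Mefv) and the TRIM-like genes Triml1 and Triml2 do not match the pattern and are given apart.

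Brain microglia, the macrophages that live in the tissue, came from female C57BL/6 mice and were measured on 6 Affymetrix arrays, 3 for control mice and 3 for conditional knock-out (CKO) mice. Both groups had been given experimental autoimmune encephalomyelitis (EAE), a model of multiple sclerosis, with 100 µg of recombinant myelin oligodendrocyte glycoprotein in incomplete Freund's adjuvant. Both also received 300 ng of pertussis toxin into a vein at immunization and again 48 h later, and all mice were killed when disease peaked. The labels place the knock-out in B cells, and the series title names GM-CSF-expressing B cells. The sources used here do not name the deleted gene, the driver of the deletion, the alleles of the controls, the age of the mice or the number of mice behind a sample. Nor do they say that replicates were separate mice, so the p-values reflect the spread of these arrays alone, and that spread may be technical.

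TRIM proteins share an amino-terminal set of domains, a RING finger that in most members makes the protein a ubiquitin ligase, followed by B-box and coiled-coil regions. The carboxy-terminal part differs between subfamilies and gives each its targets: a SPRY domain in the large antiviral branch, a PHD finger with a bromodomain in chromatin regulators, NHL repeats in RNA and protein regulators, or a COS box in members that bind microtubules. Many SPRY members are themselves induced by interferon and act in the pathways that sense viral nucleic acid, such as RIG-I with MAVS, or cGAS with STING. In mice the branch around Trim5 has multiplied into a row of neighbouring genes on chromosome 7.

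That row was ordered in the mouse gene table as Trim6, Trim34a, Trim5, Trim12a, Trim34b, Trim12c, Trim30b, Trim30c, Trim30a, Trim30d and Trim30e-ps1, with other genes between some of them. Of these, Trim6, Trim12a, Trim12c, Trim30a, Trim30b, Trim30d and Trim30e-ps1 had a probe set, and the others were not analysed here. Promoter windows of 300 bases, from 250 before a gene's start to 50 after it, were found in the RefSeq table (build GRCm38.p6) for 46 of the 61 Trim genes. The core letters of the interferon-stimulated response element, GAAA and GAAA with any 2 bases between, on either strand, lay in the windows of 7 of the 46. Over all promoter windows of the same length the share was 3.44%, and by gene 3.99% (1079 of 27025 genes), against 15.2% of the 46. The 7 genes were Trim2, Trim12a, Trim12c, Trim21, Trim26, Trim30a and Trim30d. The matched stretches of Trim12a and Trim12c are near copies, as are those of Trim30d and 1 start of Trim30a. The 7 genes are therefore not independent, and the share counts such copies apart. The core of the gamma-activated site, TTC and GAA with any 3 bases between, lay in windows of 5 of the 46 (10.9%), against 9.55% of all genes. A match is a run of letters, not evidence that a factor binds there.

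The matched stretches of all 7 genes are shown to let the copies on chromosome 7 be compared with the rest; 6 of the genes had a lower CKO mean and Trim2 a higher one. The windows of Trim25 and Trim56 held no such letters, and Trim14 had no window in the table. They are printed 5′ to 3′ on the strand of the gene, with up to 25 bases on each side and the matched letters in capitals. A match on the opposite strand reads as TTTC and TTTC with 2 bases between, and adjoining capitals in Trim21 and Trim26 are 2 overlapping matches each.
Trim12a, chr7:104315451-104315510, minus strand: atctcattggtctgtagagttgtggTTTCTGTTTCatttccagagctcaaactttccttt
Trim12c, chr7:104353344-104353403, minus strand: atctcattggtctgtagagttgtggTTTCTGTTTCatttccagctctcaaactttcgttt
Trim30a, first start, chr7:104465195-104465254, minus strand: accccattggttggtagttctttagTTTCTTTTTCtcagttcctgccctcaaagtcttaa
Trim30a, second start, chr7:104446089-104446148, minus strand: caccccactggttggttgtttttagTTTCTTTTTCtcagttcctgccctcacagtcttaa
Trim30d, chr7:104507856-104507915, minus strand: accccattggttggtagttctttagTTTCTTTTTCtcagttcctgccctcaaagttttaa
Trim21, chr7:102565433-102565494, minus strand: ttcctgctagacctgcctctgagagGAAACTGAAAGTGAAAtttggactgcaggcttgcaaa
Trim26, chr17:36836961-36837026, plus strand: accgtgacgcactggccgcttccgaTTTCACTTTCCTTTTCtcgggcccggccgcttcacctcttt
Trim2, chr3:84212789-84212835, minus strand: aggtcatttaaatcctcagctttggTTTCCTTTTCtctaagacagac
The stretches of Trim12a and Trim12c differed at 3 of 60 bases, and those of Trim30d and the first start of Trim30a at 1 of 60. The match began 36 bases before the first start of Trim30a, 41 before that of Trim30d and 29 before that of Trim12c. In Trim12a it began 10 bases after the start. For Trim30a the whole promoter window of its first start follows, to show the letters around the match.
Trim30a, chr7:104465144-104465443, minus strand: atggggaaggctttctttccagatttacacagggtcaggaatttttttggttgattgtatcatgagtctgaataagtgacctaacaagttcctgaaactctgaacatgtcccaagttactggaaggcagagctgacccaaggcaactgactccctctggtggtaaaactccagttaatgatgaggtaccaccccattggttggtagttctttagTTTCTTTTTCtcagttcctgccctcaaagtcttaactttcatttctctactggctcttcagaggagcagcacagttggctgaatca

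The deposited values are log2 expression values, and a difference of 1 is a factor of 2 on the linear scale. The arrays carried the label's cell type: microglial markers had mean log2 values of 16.15 to 16.68 on the control arrays and 16.67 to 17.25 on the CKO arrays. They also differed in their range of values and in markers of other cell types, some between the groups and some within them. CKO replicates 2 and 3 had a narrower range of values (interquartile range 3.08 and 3.11) than the other arrays (3.66 to 4.0). Astrocyte markers were highest on CKO replicate 1 (mean 12.29) and control replicate 2 (10.99), and 8.6 to 9.01 elsewhere. All 12 measured T cell markers had lower CKO means, with mean levels of 8.59 to 10.41 on the control arrays and 6.74 to 7.44 on the CKO arrays, as had all 10 monocyte markers (12.47 to 13.15 and 10.94 to 11.65). Lower CKO means were also found for 9 of 9 NK cell, 7 of 8 B cell and 7 of 9 neutrophil markers. Other marker lists went the other way. Higher CKO means were found for 10 of 10 neuron, 7 of 9 astrocyte and 7 of 9 oligodendrocyte markers. Their median log2 differences were 0.715, 0.517 and 0.633. The same held for 9 of 11 microglial and 6 of 9 endothelial markers (medians 0.347 and 0.26). Neutrophil markers had mean levels of 14.21 to 15.04 on the control arrays and 13.56 to 14.48 on the CKO arrays. In a bulk isolate, fewer cells of a type and less RNA per cell cannot be told apart.

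No Trim gene passed the test across all probe sets. In limma, 0 of the 61 were called lower and 0 higher at an adjusted p under 0.05, where 0.00901% of all probe sets were called lower and 0% higher; the lowest adjusted p of a Trim gene was 0.177. At an unadjusted p under 0.05, 5 Trim genes were lower in CKO (8.2%, against 6.35% of all probe sets) and 0 higher (against 3.55%). The 3 CKO values lay entirely below the 3 control values for 7 Trim genes (11.5%, against 8.48% of all probe sets) and entirely above them for 1, Trim72 (1.64%, against 5.94%). These shares are near those of the whole array, so as a family the Trim genes did not stand apart. The median log2 difference, CKO minus control, was -0.04 over the 61 and 0.05 over all named genes, and 34 of the 61 had a lower CKO mean (55.7%, against 44.5% of all probe sets). The differences ran from -1.77 for Trim14 to 1.22 for Trim9.

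**Figure D1:**
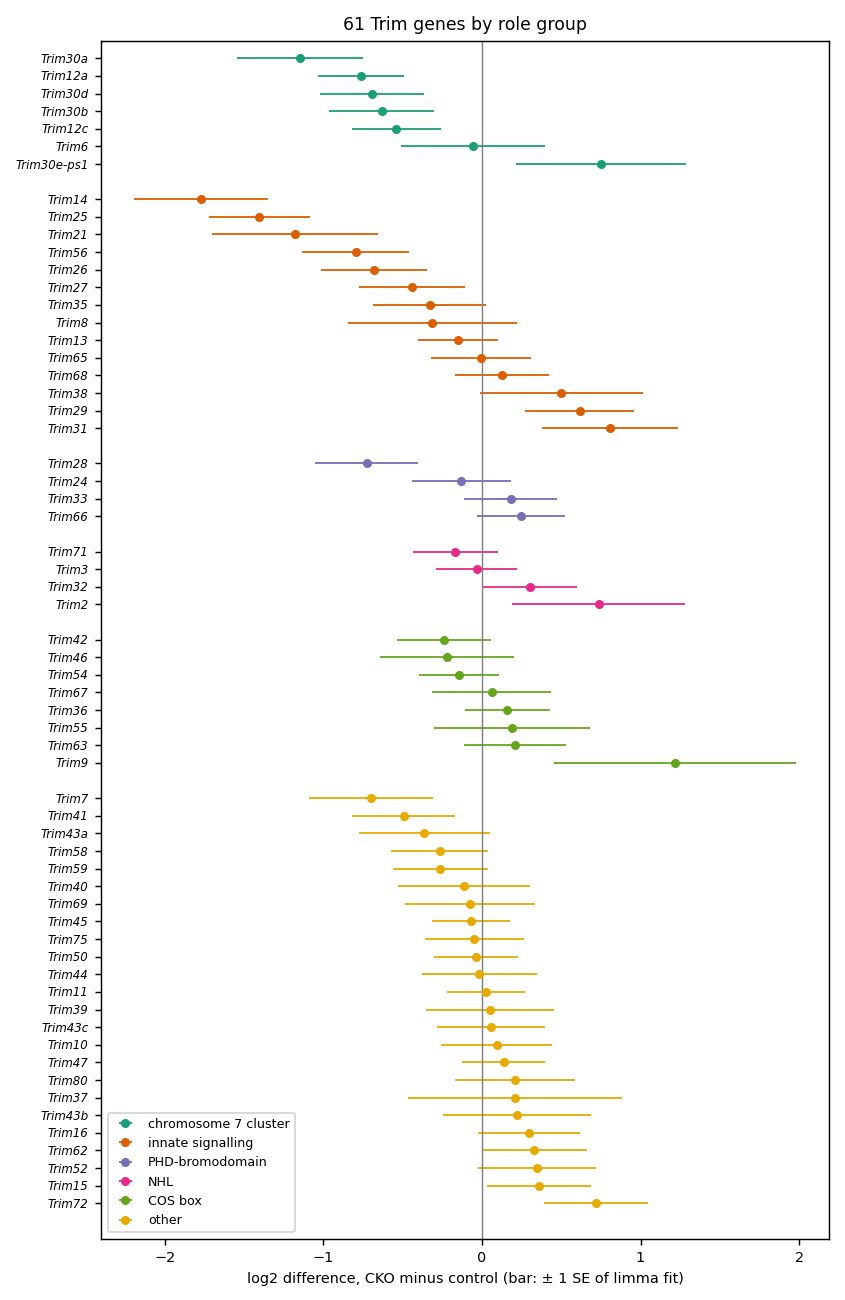
Log2 difference, CKO minus control, of all 61 Trim genes (x axis), 1 gene per line, coloured by role group; bars show 1 standard error of the limma fit. The lowest values are those of Trim14 (-1.77), Trim25 (-1.40), Trim21 (-1.18) and Trim30a (-1.15), and the highest is that of Trim9 (1.22).

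A chosen list held 14 measured Trim genes with a known part in innate sensing or NF-kB signalling. Of these, 10 had a lower and 4 a higher CKO mean, with a median difference of -0.32. Each Trim gene was put in a single group, so the list is not complete and leaves out Trim30a, for example. Trim23 of that list was not analysed here. The CKO arrays lay below all controls for 4 of the 14 (28.6%, against 8.48% of all probe sets), Trim25, Trim14, Trim56 and Trim26.

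Trim25 encodes the ubiquitin ligase that modifies the RNA sensor RIG-I. Its log2 values were 9.45, 9.03 and 10.02 on the control arrays, in replicate order as in all lists of values here, and 8.27, 7.95 and 8.07 on the CKO arrays. Every CKO array lay below every control, and the CKO arrays lay close together. The means were 9.50 ± 0.50 (SD, n = 3) and 8.10 ± 0.16, a log2 difference of -1.40 with a standard error of 0.32 (limma adjusted p = 0.177). The difference was between -1.64 and -1.14 with any 1 array left out.

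Trim14, which lacks a RING finger and sits at mitochondria with the adaptor MAVS, had the lowest difference of the family. It was at 11.16, 10.36 and 11.69 on the control arrays and at 9.66, 9.56 and 8.68 on the CKO arrays. The groups did not overlap, and CKO replicate 3 was the lowest. The means were 11.07 ± 0.67 and 9.30 ± 0.54, a difference of -1.77 with a standard error of 0.42 (limma adjusted p = 0.193).

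Trim56, a ubiquitin ligase linked to STING and to antiviral restriction, was at 10.23, 9.93 and 10.58 in controls and at 9.91, 9.48 and 8.96 in CKO. The gap between the groups was narrow, since control replicate 2 and CKO replicate 1 nearly met. Its difference was -0.80 with a standard error of 0.34 (limma adjusted p = 0.49). Trim26, a ligase that targets nuclear IRF3, stood at 7.43, 7.51 and 7.42 in controls, and at 7.41, 6.32 and 6.59 in CKO. Here CKO replicate 1 lay just under the lowest control, and the difference of -0.68 came from CKO replicates 2 and 3. Trim21, the cytosolic receptor for antibodies bound to a virus, was at 7.92, 7.0 and 8.85 in controls and at 7.46, 6.71 and 6.06 in CKO. The groups overlapped, as control replicate 2 lay below CKO replicate 1, and the spread within controls (SD 0.93) was close to the difference of -1.18. Without control replicate 3 the difference was -0.72.

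The other 9 innate signalling members had wider overlap between the groups. Trim27, Trim35 and Trim8, regulators of NF-kB and interferon signalling, had differences of -0.44, -0.33 and -0.31, and the ER ligase Trim13 and the MDA5 ligase Trim65 -0.15 and -0.01. Trim8 was highest on CKO replicate 1 (11.05) and lowest on CKO replicates 2 and 3 (8.91 and 9.33), so its CKO arrays spanned more than the difference of the means. Trim31, a ligase for MAVS and NLRP3, had a difference of 0.81. It was at 5.06, 5.11 and 5.31 in controls and at 5.03, 6.76 and 6.11 in CKO, so only the narrow-range arrays were higher. Trim29, Trim38 and Trim68 had differences of 0.62, 0.50 and 0.13. For both Trim29 and Trim38, CKO replicates 2 and 3 lay above all controls, while CKO replicate 1 lay among the controls for Trim29 (4.44) and below them for Trim38 (4.22).

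**Figure D2:**
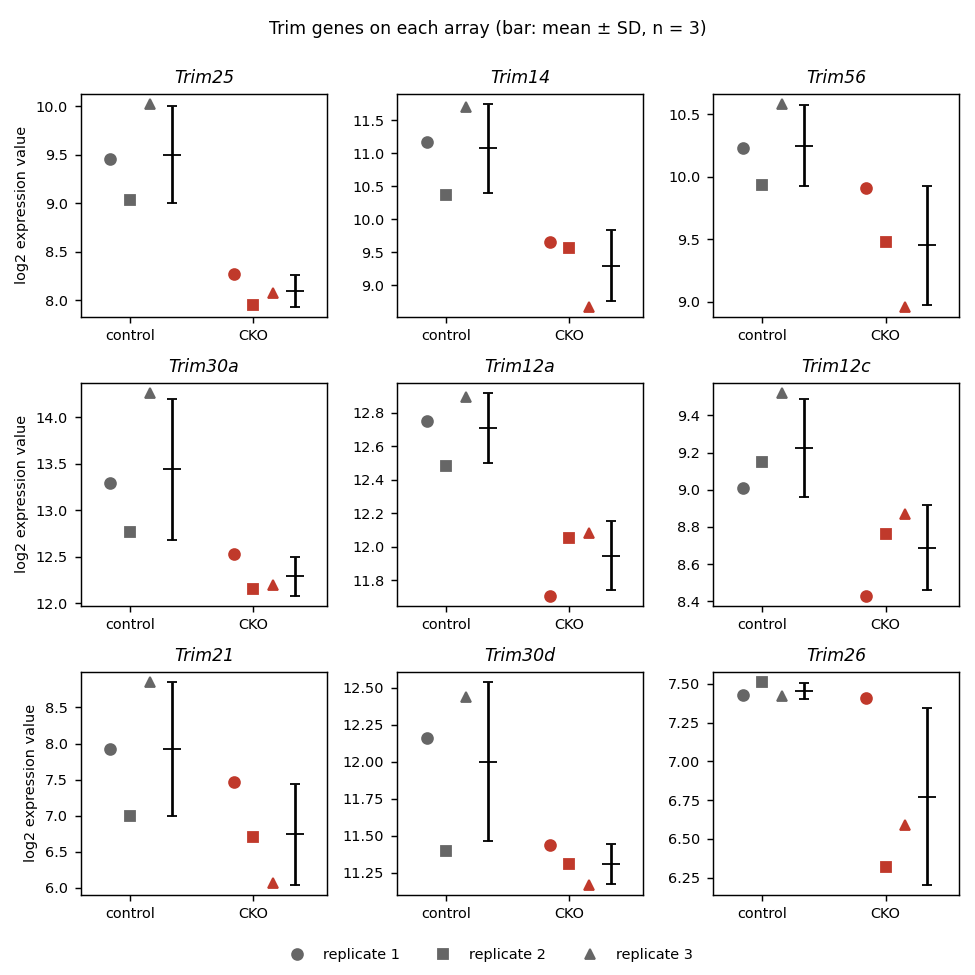
Log2 expression values (y axis, a scale of its own in each panel) of 9 Trim genes on the 3 control (grey) and 3 CKO (red) arrays, with marker shape for the replicate number and a bar for mean ± SD (n = 3). The groups are separate for Trim25, Trim14, Trim56, Trim30a, Trim12a, Trim12c and, narrowly, Trim26, and overlap for Trim21 and Trim30d.

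In the chromosome 7 row, 6 of 7 measured genes had a lower CKO mean, with a median difference of -0.63. The measured genes from Trim12a to Trim30d had differences between -1.15 and -0.54, and the groups did not overlap for Trim12a, Trim12c and Trim30a (42.9% of the 7, against 8.48% of all probe sets). None passed in limma, with adjusted p from 0.388 to 0.555. These genes are close copies of each other and can share probes, so their values are not independent; no 2 of the probe sets held identical values.

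Trim30a, which restrains Toll-like receptor signalling through TAB2 and TAB3, was at 13.29, 12.77 and 14.26 in controls and at 12.53, 12.15 and 12.19 in CKO. Control replicate 3 stood well above the rest, and the lowest control was close to the highest CKO array. The means were 13.44 ± 0.76 and 12.29 ± 0.21, a difference of -1.15 with a standard error of 0.40 (limma adjusted p = 0.388). Without control replicate 3 the difference was -0.74. Its neighbour Trim30d was at 12.16, 11.4 and 12.44 in controls and at 11.44, 11.31 and 11.17 in CKO. Control replicate 2 fell among the CKO arrays, and the difference was -0.69 with a standard error of 0.33. Trim30b was at 8.61, 8.37 and 9.27 and at 8.42, 8.15 and 7.78, with the same overlap of control replicate 2 (difference -0.63).

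Trim12a and Trim12c are the mouse relatives of the retroviral restriction factor Trim5. Trim12a was at 12.75, 12.48 and 12.89 in controls and at 11.71, 12.05 and 12.08 in CKO. The groups were separate and both spreads small, 12.71 ± 0.21 and 11.95 ± 0.21 (difference -0.76, standard error 0.27, limma adjusted p = 0.407). Trim12c was at 9.01, 9.15 and 9.52 and at 8.43, 8.76 and 8.87, again separate, with a difference of -0.54. In both, CKO replicate 1 was the lowest array, unlike in Trim25, Trim14 and Trim56, where CKO replicate 1 was the highest CKO array. At the ends of the row the pattern stopped: Trim6 differed by -0.06, and the pseudogene Trim30e-ps1 was at 5.43, 4.6 and 6.89 in controls and at 6.05, 6.66 and 6.46 in CKO (difference 0.75). Trim21 and Trim68, elsewhere on chromosome 7, differed by -1.18 and 0.13.

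**Figure D3:**
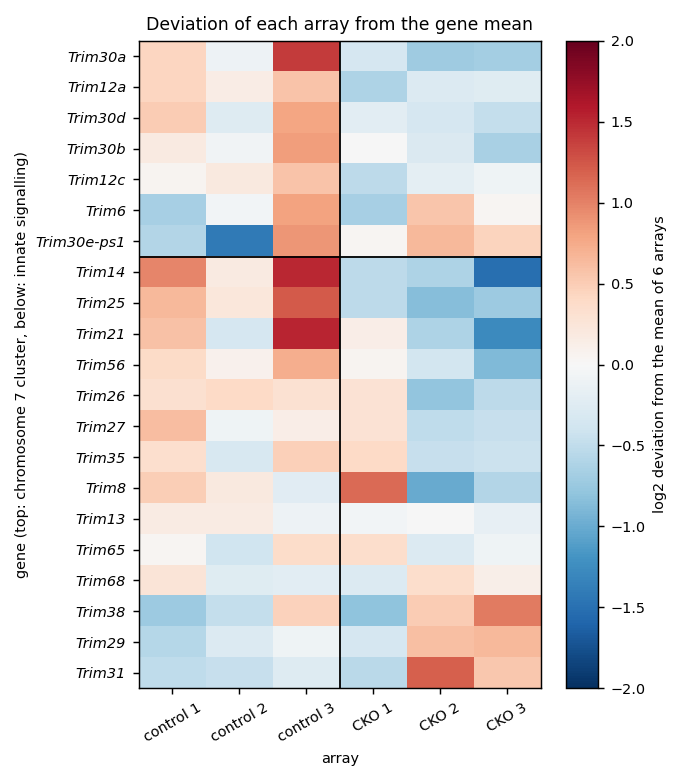
Log2 deviation of each array (columns) from the gene's mean over 6 arrays, for the 7 genes of the chromosome 7 row (top) and the 14 innate signalling genes (below); red is above and blue below the mean. Control replicate 3 is reddest for Trim30a, Trim14, Trim25 and Trim21, and Trim31, Trim29 and Trim38 are red on CKO replicates 2 and 3.

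Many of these genes shared an order within the controls. Control replicate 3 was above replicate 1 and replicate 1 above replicate 2 for 19 of the 61 Trim genes (31.1%, against 19.9% of all probe sets), among them Trim25, Trim14, Trim56, Trim21, Trim30a, Trim30b, Trim30d and Trim12a. It held for 5 of 7 genes of the chromosome 7 row and 6 of 14 innate signalling genes, and not for Trim12c, Trim26 or Trim6. T cell markers had means of 10.39, 8.59 and 10.41 in the 3 controls and interferon signalling genes 10.24, 9.61 and 10.29, so replicate 2 was lowest there too. On the CKO arrays T cell markers were at 6.74, 7.44 and 7.16 and monocyte markers at 10.94, 11.28 and 11.65. Their part in the Trim differences was not tested.

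Genes of the pathways in which these TRIM proteins act were also lower on most counts, though none passed the test over all probe sets. Of 27 measured genes of interferon induction and signalling, 25 had a lower CKO mean, with a median log2 difference of -0.72, and 11 had an unadjusted p under 0.05, all lower (40.7%, against 6.35% of all probe sets). Traf3, also on that list, was not analysed here. Irf7, the transcription factor that amplifies interferon production, was at 10.24, 8.2 and 10.61 in controls and at 7.07, 5.63 and 6.22 in CKO, a difference of -3.38 (limma adjusted p = 0.121). Usp18, which removes ISG15 and damps interferon signalling, differed by -2.10, the nucleic acid sensor Zbp1 by -2.44 and the RNA sensor Ifih1 by -1.34, with adjusted p from 0.14 to 0.176 in limma. Ifih1 encodes MDA5, the target of Trim65. Ddx58 (RIG-I), the target of Trim25, differed by -0.84 with separate groups, and Mavs and Sting1 by -0.84 and -0.16 with overlap. Ifnb1, which encodes interferon beta, was at 4.44 ± 0.37 and 4.64 ± 0.36, near the bottom of the array's scale.

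**Figure D4:**
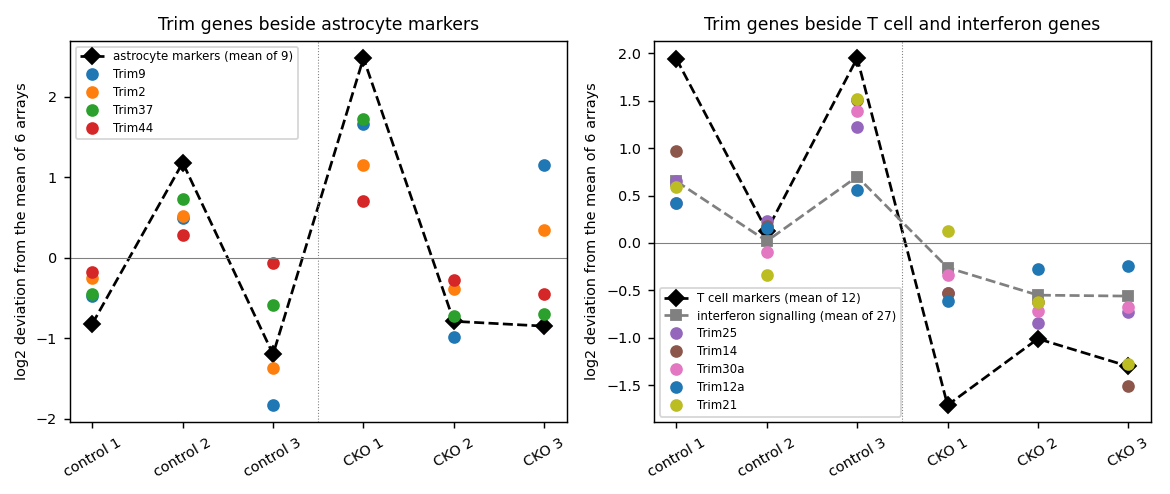
Log2 deviation from the mean of 6 arrays (y axis) on each array (x axis). Left, Trim9, Trim2, Trim37 and Trim44 beside the mean of 9 astrocyte markers, all highest on CKO replicate 1. Right, Trim25, Trim14, Trim30a, Trim12a and Trim21 beside the mean of 12 T cell markers and of 27 interferon signalling genes, with control replicates 1 and 3 high.

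The PHD-bromodomain members are regulators of chromatin. Trim28, the corepressor that KRAB zinc finger proteins recruit to silence transposons, was at 9.1, 8.46 and 8.74 in controls and at 8.52, 7.89 and 7.71 in CKO. CKO replicate 1 lay above control replicate 2, and the difference was -0.73 with a standard error of 0.32 (limma adjusted p = 0.51). Trim24 and Trim33, its relatives, stood at 11.19 ± 0.21 and 10.41 ± 0.16 in controls and at 11.06 ± 0.44 and 10.59 ± 0.38 in CKO. The sign of Trim24 turned under quantile normalization (0.10 against -0.13). Trim66 differed by 0.25. Both Trim33 and Trim24 differed by less than the spread of their CKO arrays.

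Trim2, an NHL-repeat ligase that acts on neurofilament in neurons, and Trim9, a COS-box ligase of developing and adult neurons, had higher CKO means with wide spread in both groups. Trim9 was at 8.08, 9.05 and 6.73 in controls and at 10.22, 7.58 and 9.71 in CKO. CKO replicates 1 and 3 lay above all controls and CKO replicate 2 among them (7.95 ± 1.17 and 9.17 ± 1.40, difference 1.22, standard error 0.77, limma adjusted p = 0.607). With 1 array left out it ran from 0.61 (without control replicate 3) to 2.01 (without CKO replicate 2), with 0.69 without CKO replicate 1. Trim2 was at 9.67, 10.45 and 8.56 in controls and at 11.08, 9.54 and 10.27 in CKO, a difference of 0.74 that ran from 0.24 (without control replicate 3) to 1.18 (without control replicate 2), with 0.35 without CKO replicate 1. In both, control replicate 2 was the highest control and CKO replicate 1 the highest CKO array. That order held for 11 of the 61 Trim genes (18%, against 15% of all probe sets) and for 9 of 9 astrocyte, 8 of 9 oligodendrocyte and 7 of 10 neuron markers. The 11 included 4 of the 8 COS-box members, Trim9, Trim46, Trim63 and Trim67.

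Trim37, a ligase of centrosomes and peroxisomes, and Trim44, which lacks a RING finger, showed the same order with almost no difference between the means. Trim37 was at 8.55, 9.73 and 8.42 in controls and at 10.73, 8.28 and 8.31 in CKO. A single CKO array stood far above the others, and the difference of 0.21 was well inside the standard error of 0.68. Trim44 was at 10.14, 10.6 and 10.25 and at 11.03, 10.04 and 9.87 (difference -0.02, standard error 0.36), and its sign turned under quantile normalization (0.16). The part of neural RNA in these values was not tested.

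The remaining NHL and COS-box members had small differences. Trim3, Trim32 and Trim71 lay between -0.17 and 0.30, and the muscle ligases Trim54, Trim55 and Trim63 between -0.14 and 0.21. Trim42, Trim46 and Trim67 differed by -0.24, -0.22 and 0.06. Trim36 was at 8.93, 8.42 and 8.51 in controls and at 8.79, 8.78 and 8.77 in CKO, inside the control range on every CKO array (difference 0.16).

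The 24 other members centred on 0, with a median difference of 0.04, 11 of them lower and 13 higher. Trim72, a membrane repair protein of muscle, was the only Trim gene with all CKO arrays above all controls. It was at 5.84, 6.39 and 6.25 in controls and at 6.44, 6.83 and 7.37 in CKO, and the highest control and lowest CKO array nearly met (difference 0.72, standard error 0.33, limma adjusted p = 0.515). Trim7 was at 6.29, 5.78 and 6.5 and at 5.29, 4.94 and 6.24, with CKO replicate 3 among the controls (difference -0.70). Trim41, Trim43a, Trim58 and Trim59 had differences of -0.49, -0.36, -0.27 and -0.26. Trim59, a membrane-anchored member, was at 7.81 ± 0.19 and 7.55 ± 0.39 and overlapped between the groups. Trim10, Trim11, Trim39, Trim40, Trim43c, Trim45, Trim50, Trim69 and Trim75 lay between -0.11 and 0.09, and Trim15, Trim16, Trim43b, Trim47, Trim52, Trim62 and Trim80 between 0.14 and 0.36. Trim11, at 8.13 ± 0.06 and 8.16 ± 0.05, was nearly constant over the 6 arrays.

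On chromosome 17 the 6 measured Trim genes of the major histocompatibility region did not share a direction: Trim26 was at -0.68, Trim40 at -0.11, Trim39 at 0.05, Trim10 at 0.09, Trim15 at 0.36 and Trim31 at 0.81.

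Differences also varied with the level of the signal. Of the 13 Trim genes with a mean log2 value of 9 or more, 10 had a lower CKO mean (65.8% of all probe sets in that class did), with a median difference of -0.44 against -0.19 for the class. On CKO replicates 2 and 3, taken against the control mean, the medians were -0.70 for these Trim genes and -0.34 for the class, and on CKO replicate 1 they were 0.07 and 0.04. Among the 20 Trim genes with a mean under 6, 11 were higher, with a median of 0.06 against 0.18 for the class. So lower values of bright genes and higher values of dim genes were found on the narrow-range arrays across all probe sets, not only in Trim genes.

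Leaving out arrays changed the count of 5 Trim genes lower at an unadjusted p under 0.05. Dropping a control gave 3 (replicate 1), 8 (replicate 2) or 2 (replicate 3), and dropping a CKO array gave 11 (replicate 1), 3 (replicate 2) or 4 (replicate 3). The share of all probe sets moved as well, from 6.35% to 13.6% without CKO replicate 1 and to between 3.84% and 6.25% in the other settings. Trim25 and Trim14 reached that p, with lower CKO values, in all 17 alternative fits, Trim12a in 13, Trim30a in 12, Trim56 in 9, and Trim21 and Trim28 in 7 each. These fits reuse the same arrays, and several cannot change a gene's difference. Without CKO replicate 1, limma called 3 of the 61 Trim genes lower, Trim14 (adjusted p = 0.0309), Trim25 (0.0318) and Trim26 (0.0471). It called 1 higher, Trim31 (0.0343). In that setting 2209 of the 22206 probe sets were called, so calls were common over the whole array. Every CKO array left had the narrow range, so the effects of group and of range cannot be told apart. CKO replicate 1 and control replicate 2, the arrays with the highest astrocyte markers, were also left out together. Then 6 of the 61 Trim genes were called lower (Trim14, Trim21, Trim25, Trim28, Trim30a and Trim56) and 1 higher (Trim31). Over the whole array 2516 of the 22206 probe sets were called, so calls were again common. The CKO arrays left are again those of narrow range.

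**Figure D5:**
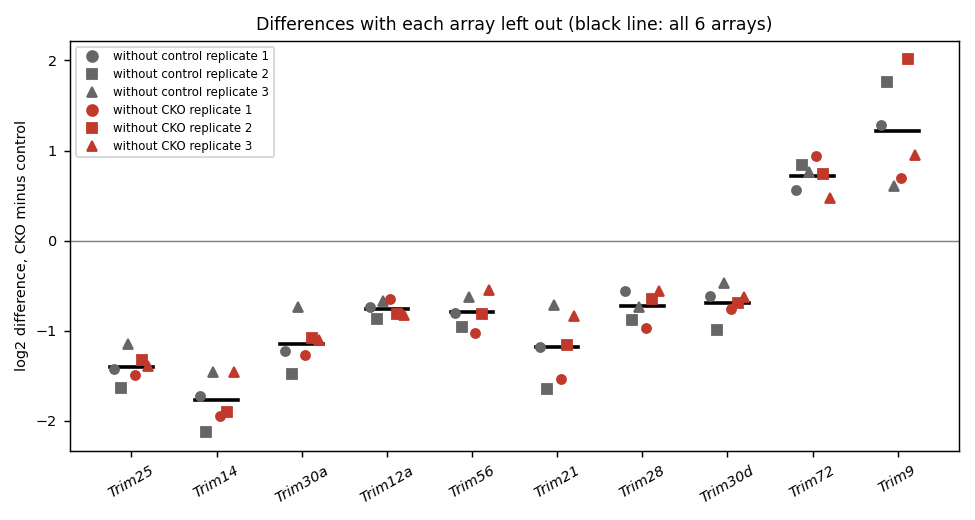
Log2 difference, CKO minus control (y axis), of 10 Trim genes with each array left out in turn (grey, a control left out; red, a CKO array left out) and with all 6 arrays (black line). Every point of Trim25 and Trim14 lies below -1, and those of Trim9 range from 0.61 to 2.01.

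The TRIM proteins with other symbols had no common direction. Pml, the organizer of nuclear bodies and itself interferon inducible, was at 10.87, 10.11 and 11.9 in controls and at 10.06, 10.04 and 10.39 in CKO, with overlap through control replicate 2 (difference -0.80, standard error 0.44, limma adjusted p = 0.57). Mid1, a COS-box ligase of microtubules, was at 13.57, 13.7 and 12.25 and at 13.3, 16.29 and 12.51, so CKO replicate 2 alone stood apart. Mid2, Mefv (pyrin), Triml1 and Triml2 differed by 0.22, -0.14, 0.02 and 0.17, all with overlap.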

How the data were processed

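Per the labels' protocols, biotinylated cDNA from total RNA of brain microglia was made with the Affymetrix WT PLUS kit. The deposited log2 values, 1 per probe set and array, were made by the authors with RMA, as the submitters' processing notes state. RMA subtracts background, normalizes and summarises probes; its version, its settings and the genome build are not stated in what was used here. That values are on a log2 scale was inferred from their range, 2.93 to 19.93. Levels of different probe sets are not comparable as amounts of RNA.

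Gene symbols came from the platform annotation, and the probe set with the highest mean stood for a gene. limma 3.58.1 (R 4.3.3) fitted CKO minus control to every probe set with lmFit and eBayes, two-sided and without covariates, with Benjamini-Hochberg adjustment over all 22206 probe sets. Counts at an unadjusted p under 0.05 are descriptions. Exact permutation of 3 against 3 arrays has a smallest p of 0.1 and was not used. The fit was run on simulated data with independent noise and shifts larger than any Trim difference. That run held no differences in array range or cell mixture, so it does not show how the fit behaves on these arrays. The number of arrays limits the precision, and no measure of background was used.

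The members and lists were chosen with earlier results of these data known. Trim genes chosen by rule were those with separate groups and an unadjusted p under 0.05, and the 3 with the highest means. The rule also took the lowest p and highest mean of each role group, and Trim21, Trim25, Trim28, Trim30a, Trim30d, Trim56 and Trim59. These were given with all values, except Trim24 and Trim59, which were given as mean ± SD. Other genes shown in full were chosen after their values were seen. Alternatives were quantile, median and cyclic loess normalization, filters on the dimmest 20% and 50%, array weights, an eBayes fit with trend and robust options, a replicate block, omitted arrays, averaging a gene's probe sets and an adjusted p of 0.1; loess and the omission of array pairs were added after seeing the data.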

Additional observations from a re-analysis of the deposited data

How the results depend on the processing

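The directions of 13 of the 15 Trim genes chosen by rule held under every alternative run that included them. Trim24 and Trim44 were the exceptions. The filters on dim probe sets, the trend and robust options, the replicate block and averaging probe sets leave a Trim gene's difference unchanged. Those runs could therefore not turn a direction. Trim24 (-0.13) was 0.10 under quantile normalization, 0.13 under cyclic loess, 0.26 without both narrow-range CKO arrays and -0.33 to 0.10 with 1 array left out. Trim44 (-0.02) was 0.16, 0.23, 0.70 and -0.38 to 0.21 in the same settings. The median difference of -0.04 was -0.14 under quantile normalization, -0.16 under median centring, -0.14 under cyclic loess and -0.20 with the dimmest 50% left out, which tests fewer genes (28 Trim genes) and leaves 0 with CKO entirely higher. Median centring, which moved the median of all probe sets from 0.063 to -0.06, gave 9 Trim genes lower at an unadjusted p under 0.05 (8.14% of all probe sets were). Array weights, which called 1694 probe sets, gave 2 Trim genes called lower, 12 lower and 4 higher at that p (14.2% and 15.1% of all probe sets), and 9 interferon genes called and 19 at that p. With 1 array left out, 0 to 3 Trim genes were called lower and 0 to 1 higher, among 0 to 2209 probe sets called. At that p, 2 to 11 were lower (3.84% to 13.6% of all probe sets) and 0 to 6 higher (1.71% to 15.4%). Fewer arrays make separation more common. Entirely lower were 8 to 19 (11% to 21.3% of all probe sets) and entirely higher 2 to 9 (8.46% to 25%). Of the interferon genes, 0 to 5 were called and 8 to 16 reached that p. Without CKO replicates 2 and 3, the lone CKO array is assumed to vary like the controls. The median Trim difference was then -0.10, and 23 Trim genes lay entirely lower and 10 entirely higher (30.8% and 26.1% of all probe sets). Without control replicate 2 and CKO replicate 1, 6 Trim genes were called lower and 1 higher, among 2516 of 22206 probe sets called. At an unadjusted p under 0.05, 13 were lower and 5 higher (13.8% and 15.9% of all probe sets). Entirely lower were 22 and entirely higher 12 (26% and 32.7%). Of the interferon genes, 12 were called and 18 reached that p. An adjusted p of 0.1 called 0 Trim genes. The causes were not tested.

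The replicate numbers are shared between the groups, but deviations of same-numbered arrays correlated at -0.005, -0.23 and 0.254, and only the arrays numbered 3 were closest to their own number, so the numbers were not taken as pairs. With a replicate block, 0 Trim genes were called and 5 were lower at an unadjusted p under 0.05, with Trim28 in and Trim56 out. The number of arrays limits the precision.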
